A study of Mus musculus with 4 samples.

Results

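The myosin heavy chain genes of the striated muscle fibre types were followed in total RNA of the tibialis anterior, the fast muscle at the front of the mouse shin, at postnatal day 21. The rows named Myh1, Myh2, Myh3, Myh4, Myh6, Myh7, Myh7b, Myh8, Myh13 and Myh14 were chosen by name. These 10 names gave 13 rows of the 34649 rows with a gene name, because Myh8 was deposited as 3 rows and Myh2 as 2. Of the 13 rows, 11 passed the filter on low values and were tested, among 10691 rows tested in all. The third row of Myh8 was listed at 0 in 3 libraries and at 0.02 RPKM in the other one, and the second row of Myh2 was listed at 0 in all 4.

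The animals were of strain C57BL/6. Nf1-KO animals had both Nf1 alleles floxed (Nf1flox/flox/Myf5+) and Het animals had 1 (Nf1flox/+/Myf5+), so both groups had the Myf5 allele and the Het animals are not wild type. In this kind of cross Myf5+ stands for a Cre driver active in muscle precursors. Whether Nf1 was intact in nerve, vessel and connective tissue cells of the muscle was not tested. There were 2 libraries in each group. Nothing in the labels says whether they came from separate animals, so the p-values measure the spread between these libraries, which may be technical. The labels give no batch.

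Myosin heavy chain is the motor protein of the thick filament, and the isoform a fibre expresses sets how fast it shortens. Adult mouse limb fibres express mainly Myh4 (type 2B, the fastest and most glycolytic), Myh1 (type 2X), Myh2 (type 2A, fast and oxidative) or Myh7 (slow), while Myh3 and Myh8 are the embryonic and perinatal forms that are replaced after birth. Myh13 is known from eye and larynx muscles, Myh6 from the heart, and Myh7b is an old relative of the slow and cardiac forms. Myh14 encodes a non-muscle myosin (heavy chain IIC) and was kept because its name was in the chosen set. RefSeq also lists Myh14 as a synonym of Myh7b, but the files hold a row for each name, with different values. In bulk muscle, fewer fibres of a type and less of its RNA per fibre cannot be told apart.

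Myh3, Myh2, Myh1, Myh4, Myh8 and Myh13 lie in this order on chromosome 11, Myh6 and Myh7 are neighbours on chromosome 14, Myh7b is on chromosome 2 and Myh14 on chromosome 7. The windows around the annotated starts of the 4 most abundant genes are shown because these neighbours moved in different directions. Each is 300 bases, 250 before and 50 after the RefSeq start (build GRCm38.p6, plus strand), 5′ to 3′. Capitals mark TTCTAATTATATCC, the longest run common to all 4 windows, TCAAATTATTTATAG, the longest run common to those of Myh4, Myh1 and Myh8, and the motifs TATAAAA and CAGCTG, all searched on both strands.
Myh4, chr11:67237562-67237861: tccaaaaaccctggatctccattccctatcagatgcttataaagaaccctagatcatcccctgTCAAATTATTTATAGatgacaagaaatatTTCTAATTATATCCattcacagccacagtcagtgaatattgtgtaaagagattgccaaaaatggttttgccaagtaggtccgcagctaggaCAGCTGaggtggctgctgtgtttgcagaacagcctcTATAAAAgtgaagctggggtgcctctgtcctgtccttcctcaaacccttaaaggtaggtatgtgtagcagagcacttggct
Myh1, chr11:67199852-67200151: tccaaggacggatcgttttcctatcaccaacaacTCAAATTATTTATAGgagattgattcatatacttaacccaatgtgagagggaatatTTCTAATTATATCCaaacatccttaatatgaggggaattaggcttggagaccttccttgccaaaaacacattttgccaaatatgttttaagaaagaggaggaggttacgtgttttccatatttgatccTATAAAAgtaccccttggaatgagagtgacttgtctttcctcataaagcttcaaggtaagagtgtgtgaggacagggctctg
Myh2, chr11:67170777-67171076: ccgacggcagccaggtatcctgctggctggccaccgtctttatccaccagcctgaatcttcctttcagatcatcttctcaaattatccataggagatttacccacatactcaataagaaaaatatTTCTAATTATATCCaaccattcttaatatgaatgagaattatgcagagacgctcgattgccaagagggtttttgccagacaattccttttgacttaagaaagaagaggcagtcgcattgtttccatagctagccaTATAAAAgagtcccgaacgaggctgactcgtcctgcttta
Myh8, chr11:67276874-67277173: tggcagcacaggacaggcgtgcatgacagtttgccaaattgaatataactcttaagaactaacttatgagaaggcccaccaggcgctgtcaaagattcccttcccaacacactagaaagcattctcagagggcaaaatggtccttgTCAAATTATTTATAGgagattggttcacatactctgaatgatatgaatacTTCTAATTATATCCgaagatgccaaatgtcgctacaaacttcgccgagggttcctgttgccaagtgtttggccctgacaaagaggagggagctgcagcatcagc

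The run TTCTAATTATATCC was present in the windows of Myh4, Myh1, Myh2 and Myh8 and in 0.0122% of all 32851 promoter windows, which is 4 windows and therefore these 4 alone. The run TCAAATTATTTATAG, which overlaps a match to the MEF2 consensus, was found in 3 windows of all (0.00913%), those of Myh4, Myh1 and Myh8. Both runs were taken from these windows, so their presence there is given by their choice and only the count over all windows is new. The TATAAAA run began at position -31 relative to the start in Myh4 and at -32 in Myh1, and also occurred in Myh2 and Myh3. It occurred in 5.48% of all windows. In Myh2 it began 10 bases after the annotated start, so the windows do not cover the same stretch in every gene. CAGCTG, an E-box of the kind that myogenic factors bind, was found among the 10 genes only in Myh4, at position -67, and in 16.3% of all windows. The MEF2 consensus was matched in Myh4, Myh1 and Myh8 and in 3.19% of all windows. These matches describe the letters of the windows and were not linked to the values below.

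Myh4 stood at 6767 and 7015 RPKM in Het and at 3508 and 3428 RPKM in Nf1-KO (RPKM being reads scaled by gene length and library depth). Both Nf1-KO libraries lay far below both Het libraries. As a group level it fell from 6891 ± 175 to 3468 ± 57.0 RPKM (SD, n = 2), 2.12-fold lower after scaling between libraries. On the log2 scale the difference was -1.08 (standard error 0.023, limma adjusted p 8.5e-07).

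Myh1 was 2354 and 2443 RPKM in Het and 3712 and 3644 RPKM in Nf1-KO, so the type 2X gene moved in the opposite direction to its neighbour Myh4. It was 1.44-fold higher after scaling, with a log2 fold change of 0.52 (95% interval 0.47 to 0.58, limma adjusted p 1.1e-05). Myh2 was 448 and 471 RPKM in Het and 851 and 829 RPKM in Nf1-KO. It was 1.71-fold higher after scaling, with a log2 fold change of 0.77 (95% interval 0.71 to 0.84, limma adjusted p 6.2e-06). The groups did not overlap for either gene. In Het the level of Myh4 was above that of Myh1 in both libraries, and in Nf1-KO the order of these genes was turned, with the lowest Myh1 value (3644 RPKM) above the highest Myh4 value (3508 RPKM).

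**Figure D1:**
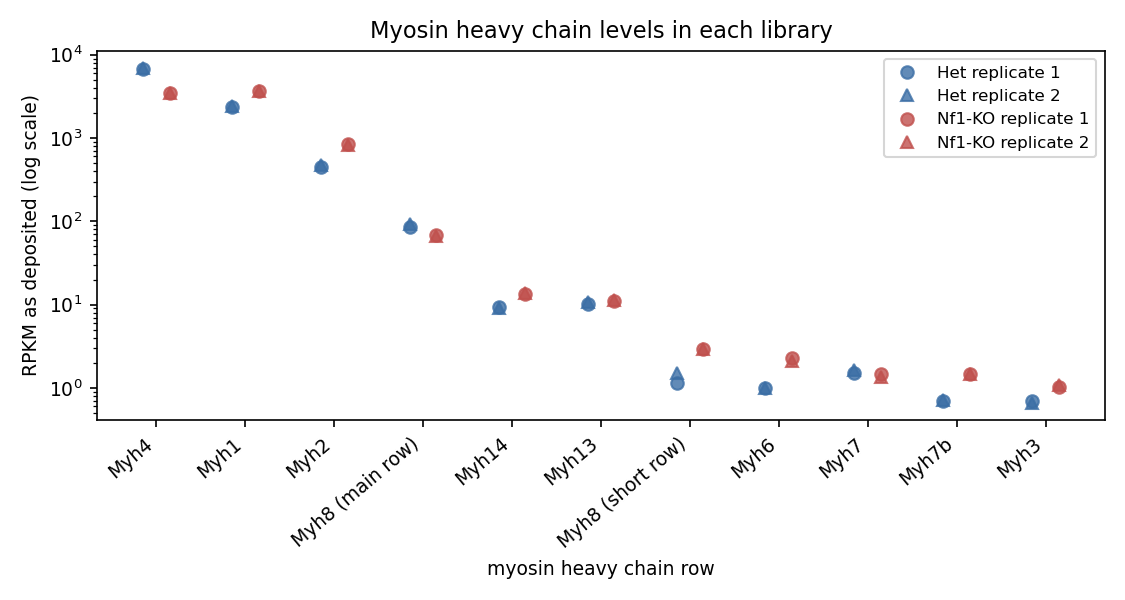
RPKM as deposited (vertical log axis) of the 11 tested heavy chain rows in each of the 4 libraries; each point is 1 library. Myh4 is highest in Het (6767 and 7015) and falls below Myh1 in Nf1-KO, and the lowest rows lie near 1 RPKM.

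The shares of the summed heavy chain RPKM were nearly the same in libraries of a group. Myh4 made up 69.9% and 69.8% of the sum in the Het libraries and 42.9% and 42.8% in the Nf1-KO libraries. Myh1 made up 24.3% in each Het library and 45.4% and 45.6% in the Nf1-KO libraries. Myh2 made up 4.63% and 4.69% in Het against 10.4% in either Nf1-KO library. The difference of mean shares (Nf1-KO minus Het) was -26.98 percentage points for Myh4, 21.17 for Myh1 and 5.73 for Myh2. These 3 genes together held 98.8% ± 0.021 of the sum in Het and 98.8% ± 0.0066 in Nf1-KO (SD, n = 2), so the composition moved among the adult fast isoforms. With 2 libraries against 2, the exact two-sided permutation test of a share cannot go below 0.333, the p that every share with a value in all libraries gave.

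**Figure D2:**
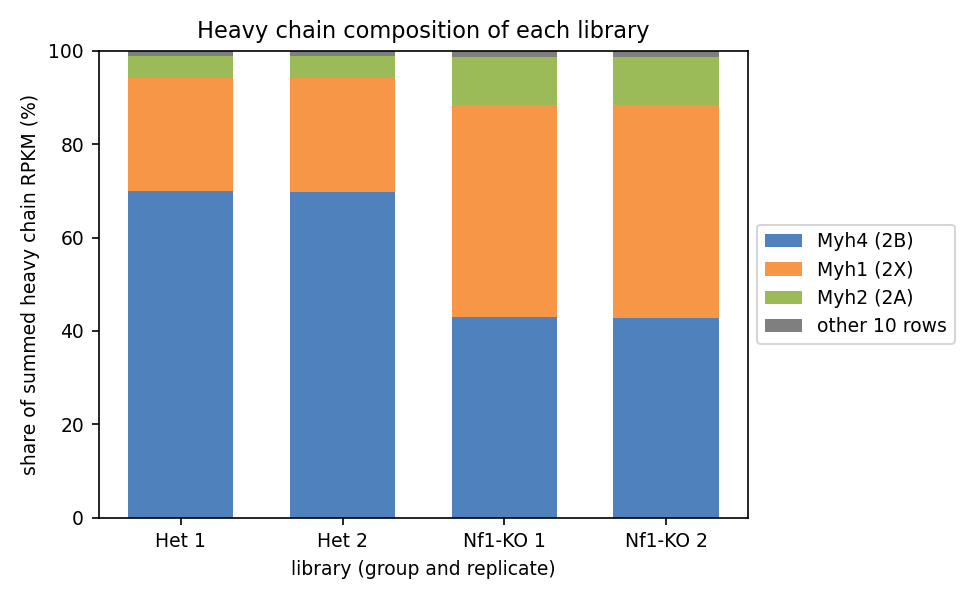
Share of the summed heavy chain RPKM (percent, vertical axis from 0) held by Myh4, Myh1, Myh2 and the other 10 rows in each library. The Myh4 share is 69.9% and 69.8% in the Het libraries and 42.9% and 42.8% in the Nf1-KO libraries.

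The ratio of Myh4 to Myh1 was 2.88 and 2.87 in the Het libraries and 0.945 and 0.941 in the Nf1-KO libraries. The ratio of Myh1 to Myh2 moved less, from 5.25 and 5.18 to 4.36 and 4.40. The sum of all heavy chain rows was 9680 and 10050 RPKM in Het and 8173 and 8001 RPKM in Nf1-KO. It made up 1.84% ± 0.036 of all RPKM of a library in Het and 1.48% ± 0.025 in Nf1-KO (SD, n = 2; exact permutation p 0.333, the smallest possible). After scaling, Myh4 was lower by 3763 RPKM (-3763 as the difference of means), while Myh1 and Myh2 together were higher by 1421 RPKM, so the gain of the 2X and 2A genes was smaller than the loss of the 2B gene. Because the sum itself was lower, a share can be higher where the level is not.

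As a description, the values were also scaled to the same summed heavy chain RPKM in every library, an alternative added after seeing the data. Myh4 then differed by -0.70 on the log2 scale, Myh1 by 0.90 and Myh2 by 1.15. These 3 genes hold nearly all of the sum that this scaling fixes, so a lower Myh4 sets the other two higher, and the values support nothing beyond the shares. The scaling moved the median of all tested rows to 0.28 and called 69.5% of them higher and 6.04% lower.

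Of the 11 tested heavy chain rows, 9 passed a limma adjusted p of 0.05, beside 50.3% of all tested rows. Higher in Nf1-KO were 7 rows (Myh1, Myh2, Myh3, Myh6, Myh7b, Myh14 and the short row of Myh8), beside 24.9% of all rows, and lower were 2 (Myh4 and the main row of Myh8), beside 25.4%. With values as deposited and not scaled, 7 heavy chain rows were again called higher and 2 lower, beside 35.2% and 17.6% of all rows, so the even split over all rows belongs to the scaling. The scaled groups did not overlap in 10 of the 11 rows, all but Myh13, beside 76.3% of all rows. The median log2 fold change was 0.42 over the 11 rows and 0.00048 over all tested rows. The scaling largely sets the median of all rows, which was 0.070 with values as deposited. The 11 rows include both tested rows of Myh8, which moved in opposite directions. The authors' deposited table held the same 11 rows and called 9 of them at an adjusted p under 0.05, beside 31.6% of its 13985 rows. In the authors' deposited table Myh7 and Myh13 missed the threshold, as they did in the limma fit.

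**Figure D3:**
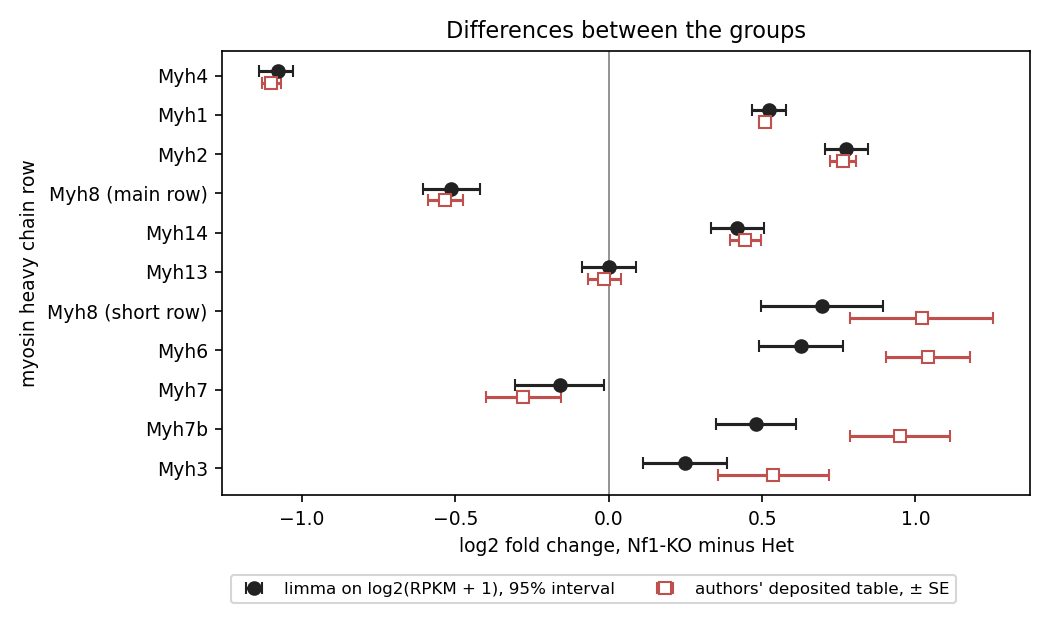
Log2 fold change (Nf1-KO minus Het, horizontal axis) of the 11 tested rows, with the limma fit as filled points with 95% intervals and the authors' deposited table as open squares with standard errors. Myh4 and the main row of Myh8 lie below 0, Myh13 lies at 0, and the low rows lie farther from 0 in the authors' table, which adds no pseudocount of 1 RPKM.

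Myh8, the perinatal heavy chain, was measured by rows that moved in opposite directions. The main row, marked as the second copy, held 86.6 and 93.2 RPKM in Het and 67.8 and 66.0 RPKM in Nf1-KO. It fell by 0.51 on the log2 scale (standard error 0.039, limma adjusted p 1.2e-04), and its share of the heavy chain sum was 0.911% ± 0.023 in Het and 0.827% ± 0.0030 in Nf1-KO (SD, n = 2). The short row held 1.15 and 1.5 RPKM in Het against 2.92 RPKM in either Nf1-KO library, and rose by 0.70 on the log2 scale (standard error 0.081, limma adjusted p 7.6e-04). The authors' mean normalized count divided by the mean RPKM, which grows with the length used for a row, was 293 for the main row of Myh8 and 303 for Myh4 but 77.1 for the short row. That is 25.5% of the value for Myh4, which would be a length of about that fraction if the quotient followed length alone. For the other tested rows the quotient lay between 279 and 310, except for Myh7 with 390. The annotated transcripts of Myh7 and Myh4 are 6135 and 6016 bases, so the quotient does not follow annotated length in every row. Over all 4 libraries the short row rested on a mean of 164 normalized reads and the main row on 22993 in the authors' deposited table. The ratio of the main to the short row was 75.3 and 62.1 in Het and 23.2 and 22.6 in Nf1-KO, and which part of the gene the short row covers is not given in the sources used here.

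Myh3, the embryonic heavy chain, had the lowest mean of the 11 tested rows in either group, at 0.69 and 0.66 RPKM in Het and 1.02 and 1.08 RPKM in Nf1-KO. The groups did not overlap, and the log2 fold change of 0.25 (standard error 0.056) passed with a limma adjusted p of 0.012. In the authors' deposited table its log2 fold change was 0.54 (adjusted p 0.012), from a mean of 250 normalized reads. Without Nf1-KO replicate 2 the call was lost, at a log2 fold change of 0.23 and a limma adjusted p of 0.058. So among the developmental forms the abundant perinatal row was lower, while the short perinatal row and the scarce embryonic gene were higher. In Nf1-KO, Myh3 still made up no more than 0.0135% of the heavy chain sum.

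Myh7, the slow heavy chain, was 1.53 and 1.66 RPKM in Het and 1.47 and 1.36 RPKM in Nf1-KO, which left it at 0.0162% and 0.0175% of the heavy chain sum. Its log2 fold change was -0.16 (95% interval -0.31 to -0.015), and the limma adjusted p of 0.066 missed the threshold. Where all libraries had to reach 1 RPKM, the limma adjusted p was 0.049, and without a variance trend it was 0.044. Myh6, its neighbour and the cardiac alpha form, was 0.99 and 1.01 RPKM in Het and 2.29 and 2.13 RPKM in Nf1-KO. It rose by 0.63 on the log2 scale (standard error 0.056, limma adjusted p 2.5e-04), a ratio of group means of 2.07 after scaling. The ratio of Myh6 to Myh7 was 0.647 and 0.608 in Het against 1.56 and 1.57 in Nf1-KO, so the order of these neighbours in RPKM was turned as well.

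Myh7b was 0.69 and 0.71 RPKM in Het against 1.45 RPKM in either Nf1-KO library. It rose by 0.48 on the log2 scale (standard error 0.054, limma adjusted p 6.4e-04), a ratio of 1.94 after scaling. Its annotated exons overlap those of Trpc4ap on the opposite strand, a gene that held 22.2 ± 0.481 and 23.9 ± 0.17 RPKM (SD, n = 2) and did not pass (log2 fold change 0.011, limma adjusted p 0.78). Whether the counting used strand is not given in the sources used here. The part of reads from Trpc4ap in the Myh7b values was not tested. The microRNAs that sit in introns of Myh6, Myh7 and Myh7b (Mir208a, Mir208b and Mir499) were listed at 0 in all 4 libraries. Whether these libraries could hold such short RNAs was not tested, so the zeros do not show that the microRNAs were absent. Myh6 and Myh7b are also known from the specialised fibres of muscle spindles. Of 4 spindle markers, 2 were tested (Etv4 and Ntf3) and neither passed. With values as deposited, Ntf3 differed by 0.206 and passed (limma adjusted p 0.04), and Etv4 did not. Egr3 was listed at 0.08 and 0.07 RPKM in Het and 0.23 and 0.25 RPKM in Nf1-KO, below the filter. The part of spindle fibres in the Myh6 and Myh7b values was not tested.

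Myh13 was 10.25 and 10.61 RPKM in Het and 11.05 and 11.22 RPKM in Nf1-KO as deposited, and the groups overlapped after scaling. Its log2 fold change was 0.000028 with a 95% interval from -0.089 to 0.089 (limma adjusted p 1.0). This interval holds for the scaling used here, since with values as deposited the difference was 0.087 (limma adjusted p 0.088) and scaled to the summed heavy chains it was 0.35 (limma adjusted p 2.7e-04). Its share of the heavy chain sum was 0.106% in each Het library and 0.135% and 0.140% in the Nf1-KO libraries. Myh14, the non-muscle form, was 9.36 and 9.15 RPKM in Het and 13.36 and 13.76 RPKM in Nf1-KO. It rose by 0.42 on the log2 scale (standard error 0.036, limma adjusted p 1.9e-04), a ratio of 1.37 after scaling. Of the other non-muscle heavy chains, Myh9 fell by 0.22 on the log2 scale (limma adjusted p 0.0038) and Myh10 rose by 0.18 (limma adjusted p 0.037). The smooth muscle heavy chain Myh11 had a log2 fold change of 0.12 that did not pass (limma adjusted p 0.059). With values as deposited, Myh11 differed by 0.197 and passed (limma adjusted p 0.0096).

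By level, the Het order was Myh4, Myh1, Myh2, Myh8 (main row), Myh13, Myh14, Myh7, Myh8 (short row), Myh6, Myh7b and Myh3. Only Myh7b and Myh3 overlapped as neighbours, at 0.69 to 0.71 and 0.66 to 0.69 RPKM. The Nf1-KO order was Myh1, Myh4, Myh2, Myh8 (main row), Myh14, Myh13, Myh8 (short row), Myh6, Myh7b, Myh7 and Myh3, where Myh7b (1.45 RPKM) overlapped Myh7 (1.36 to 1.47 RPKM). Myh7 thus stood above Myh6 and Myh7b in both Het libraries and below Myh6 in both Nf1-KO libraries. The quotient of mean count and mean RPKM was 390 for Myh7 against 285 for Myh6 and 290 for Myh7b, so the place of Myh7 beside these genes depends on the length used for it, which is not given in the sources used here.

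The heavy chains share sequence, which bears on how reads were divided between them. Coding sequences of Myh4 and Myh1 were identical at 90.1% of 5817 aligned bases, those of Myh1 and Myh2 at 91.0%, and those of Myh7 and Myh6 at 91.6%. Myh4 and Myh7 were identical at 77.3%, and Myh4 and Myh14 at 53.6%. Of all windows of 50 bases in the GENCODE M21 transcript, 18.9% for Myh4, 26.7% for Myh1, 26.9% for Myh2 and 22.6% for Myh7 and for Myh6 also occurred in another heavy chain. With windows of 100 bases these shares were 3.85%, 9.73%, 9.17% and 11.4%. Myh7b and Myh14 shared none at either length. Another heavy chain here means another of the 10 genes, so Myh9, Myh10 and Myh11 were not compared. For Myh8, 21.4% of windows of 50 bases and 6.61% of those of 100 bases occurred in another heavy chain. Coding sequences of Myh4 and Myh8 were identical at 87.9%, and their longest common run was 164 bases. The longest run common to the coding sequences of Myh4 and Myh1, 161 bases that begin at coding base 3241 of Myh4 and 3250 of Myh1, is shown because a read inside it cannot be given to one gene rather than the other by its sequence.
Myh4 and Myh1, common run: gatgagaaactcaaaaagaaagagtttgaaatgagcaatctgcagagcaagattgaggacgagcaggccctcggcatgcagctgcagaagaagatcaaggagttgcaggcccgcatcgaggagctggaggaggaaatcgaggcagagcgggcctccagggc
The read length and the treatment of such reads are not given in the sources used here. Among the 10 genes, most windows of each gene were its own. The part of reads from Myh4 in the far lower values of the main row of Myh8 was not tested.

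**Figure D4:**
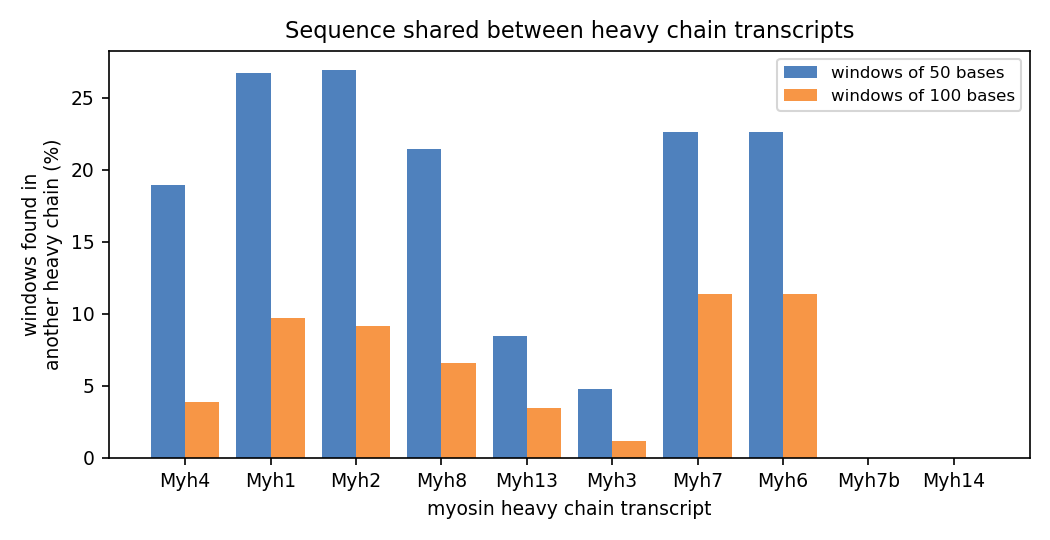
Percent of all windows of 50 and of 100 bases in each heavy chain transcript that also occur in another of the 10 genes (vertical axis from 0). Myh1 and Myh2 share the most at 50 bases (26.7% and 26.9%), and Myh7b and Myh14 share none.

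The genes of at least 100 RPKM whose values over the 4 libraries lay nearest to a heavy chain (smallest distance of centred log2 values, among 403 other genes) were named by a fixed rule. For Myh4 these were Casq1 (distance 0.072), Car3 (0.090) and Mybpc2 (0.13), which encode the fast calsequestrin, carbonic anhydrase 3 and fast myosin-binding protein C. Casq1 was 1096 ± 2.60 RPKM in Het and 527 ± 9.72 RPKM in Nf1-KO (SD, n = 2). For Myh1 they were Phyh (0.026), Tcap (0.038) and Got2 (0.046), and for Myh2 they were Etfa (0.054), Got1 (0.069) and Abra (0.071). With 4 libraries in 2 groups, genes with a similar log2 fold change lie near each other on this measure.

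The partners of the heavy chains moved in both directions, to be read beside 24.9% of all tested rows higher and 25.4% lower. Of 6 myosin light chain genes tested, 2 fell and 3 rose past the threshold. The fast chains Myl1 and Mylpf fell by 0.96 and 0.42 on the log2 scale, and the slow and atrial chains Myl2 and Myl4 rose by 0.28 and 0.29. The median of the list was 0.14. Of 7 tested genes for myosin-binding and M-band proteins, 3 rose and 3 fell, with a median of -0.23 (Mybphl, the eighth, was listed at 0). Myom3 rose from 5.21 ± 0.205 to 15.3 ± 0.0071 RPKM (SD, n = 2) and the slow-type Mybpc1 by 0.68 on the log2 scale, while Mybpc2 fell by 1.21. Ttn fell by 0.64, and its Nf1-KO libraries differed, at 96.6 and 76.2 RPKM.

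Of 10 genes for myosin folding and turnover, 1 rose and 5 fell, beside 24.9% and 25.4% of all rows, with a median of -0.076. The myosin chaperone Unc45b fell by 0.31 on the log2 scale and Hsp90aa1, its partner chaperone, by 0.35, whereas Unc45a, the general form, rose by 0.37. With values as deposited and not scaled, 3 of this list were higher and 3 lower, beside 35.2% and 17.6% of all rows, and Hspa8, which had fallen by 0.083, turned to 0.012 and was not called.

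Of 25 transcription regulators of heavy chain genes, 23 were tested, of which 5 rose and 9 fell, beside 24.9% and 25.4% of all rows, with a median of -0.030. With values as deposited, 9 were higher and 8 lower and the median was 0.027, beside 35.2% and 17.6% of all rows. The split over all rows moved with the scaling as well. Maf and Mafa, which are known to activate Myh4, fell by 0.23 and 0.35 on the log2 scale (limma adjusted p 5.4e-04 and 0.0039). Maf was 33.0 and 33.1 RPKM in Het and 29.9 RPKM in either Nf1-KO library. Sox6, a repressor of slow fibre genes, fell by 0.48, and Nfatc2 and Nfatc3, which respond to calcineurin, fell by 0.50 and 0.43. Tbx15, a factor of glycolytic fibres, fell by 0.16. Six4, a homeobox factor of muscle development, rose by 0.26, Vgll2, a cofactor of TEAD factors, by 0.58 and Ppargc1a, a coactivator of oxidative genes, by 0.37. Myog, which drives late differentiation, rose by 1.44 on the log2 scale, from a mean of 1.08 RPKM to 4.86 RPKM. The long non-coding RNA of the fast locus, 2310065F04Rik, was 0.37 RPKM in each Het library and 0.29 and 0.46 RPKM in Nf1-KO, below the filter.

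**Figure D5:**
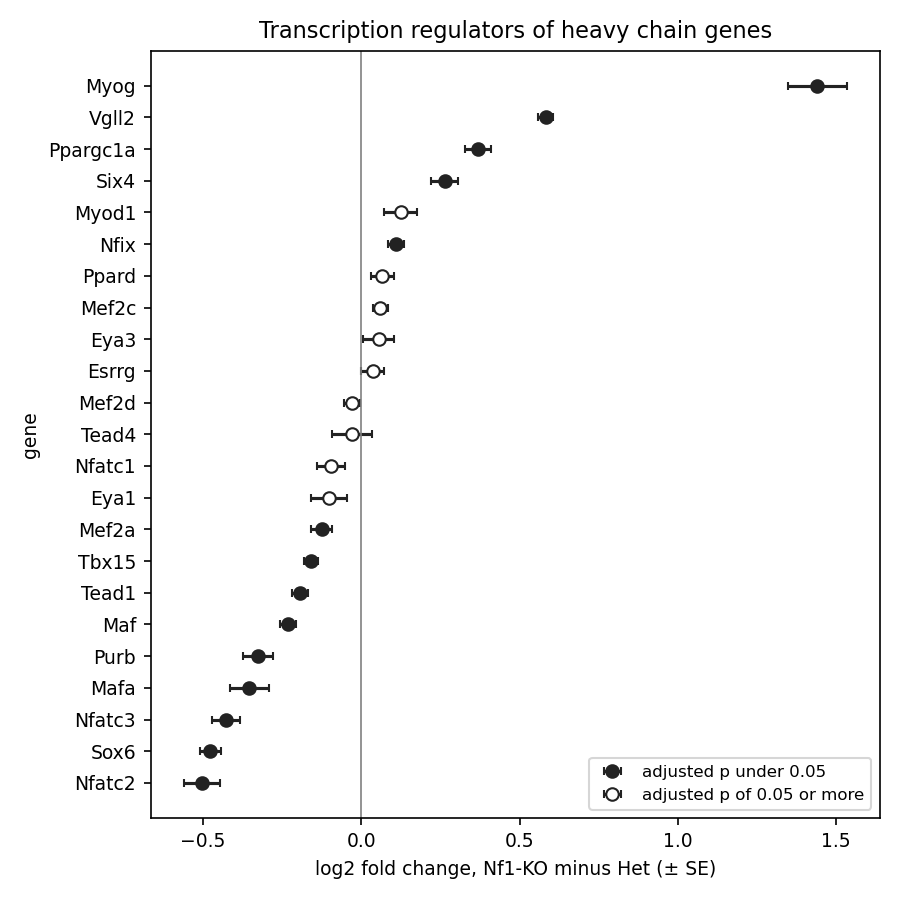
Log2 fold change (Nf1-KO minus Het, with standard errors, horizontal axis) of the 23 tested transcription regulators; filled points have a limma adjusted p under 0.05. Myog lies farthest to the right at 1.44, and Nfatc2, Sox6 and Nfatc3 lie lowest at -0.50, -0.48 and -0.43.

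Of 7 genes of denervated and immature fibres, 5 were tested, and 4 of them rose, beside 24.9% of all rows, with a median of 1.21. These 4 include Myog, which is also counted among the transcription regulators above. Chrna1, the receptor subunit for acetylcholine, rose from 2.77 ± 0.028 to 8.19 ± 0.028 RPKM (SD, n = 2) and Sln by 3.20 on the log2 scale. Ncam1 did not pass (log2 fold change -0.0091, limma adjusted p 0.91), and Chrng and Runx1 were below the filter.

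As a check of the labels, Nf1 was 1.09 and 1.01 RPKM in Het and 0.89 and 0.85 RPKM in Nf1-KO, a log2 fold change of -0.18 (limma adjusted p 0.041) that was not called with values as deposited (-0.13, limma adjusted p 0.094). The marker counts that follow stand beside 24.9% of all tested rows higher and 25.4% lower. The 6 markers of skeletal muscle fibres summed to 49000 to 49050 RPKM in Het and 42140 to 42190 RPKM in Nf1-KO, with 5 lower and 1 higher. The lower ones include Mylpf, which is also counted among the light chains above. The 6 cardiac markers summed to 1.54 to 1.64 RPKM in Het and 5.03 to 5.46 in Nf1-KO. Nppb and Myl7 were listed at 0, Tnni3 did not exceed 0.08 RPKM, and only Tnnt2, which immature skeletal muscle also expresses, was tested and rose (1.24). The 6 smooth muscle markers, Myh11 among them, summed to 47.6 to 48.8 and 57.3 to 57.7 RPKM, with 2 higher and 1 lower of 4 tested. With values as deposited, 3 of these 4 were higher and 0 lower, beside 35.2% and 17.6% of all rows. Fibroblast markers (4 of 4 higher) summed to 78.7 to 80.8 RPKM in Het and 119.8 to 120.2 RPKM in Nf1-KO, and macrophage markers (2 of 2 tested higher, Adgre1 listed at 0) to 0.96 to 1.31 and 2.54 to 3.01 RPKM. Of 4 satellite cell markers, 2 were tested and neither passed, though with values as deposited Pax7 did (0.181, limma adjusted p 0.047). Below the filter, Myf5 was 0.21 and 0.22 RPKM in Het and 0.57 and 0.42 RPKM in Nf1-KO. Calcr, also below it, was 0.06 and 0.15 RPKM in Het and 0.04 and 0.05 RPKM in Nf1-KO. The part of these other cells in the heavy chain values was not tested.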

How the data were processed

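RNA of 4 libraries (2 Het, 2 Nf1-KO) was made with a TruSeq version 2 kit, per the labels' protocols. STAR 2.4.2a, DESeq2 and the build mm9 are named in the submitters' processing notes, with no role given; the counter, annotation and read length are not given in the sources used here. The authors deposited 1 value per gene and library, read from the values as RPKM. Their deposited comparison table holds, per the file headers, a signal value (the mean of read counts divided by size factors), a log2 fold change with its standard error, a test score, and a p-value with its adjusted p-value. No counts per library were used, so the depth per library is unknown and no counting intervals are given.

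Of 34682 deposited rows, 33 named only by digits were dropped. Where a name had copy rows, the one with the highest mean was used, except that all copy rows of the 10 heavy chain names were kept. Rows that reached 0.5 RPKM in 2 or more libraries entered a test with limma 3.58.1 in R 4.3.3, with a variance trend, on log2(RPKM + 1), which understates the change of low genes, and p-values were adjusted by Benjamini-Hochberg at 0.05. The scaling between libraries was an unweighted trimmed mean of log ratios (30% and 5% trimmed; factors 0.967 to 1.034). The fit was tested on simulated data. Means and SD are of RPKM as deposited, and fold changes of scaled values. Single values were compared by an exact two-sided permutation test in scipy 1.17.1. Promoter windows are from RefSeq (GRCm38.p6, matched by symbol for all 10 names) and transcripts from GENCODE M21. Coding sequences were aligned with mafft 7.526. Other coordinates are not printed, since the builds differ. Annotated antisense transcripts overlap exons of Myh1, Myh2, Myh6, Myh7 and Myh14. The part of their reads in the values of these genes was not tested.

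The heavy chain genes, gene lists and tests were chosen with earlier results of these data known. Named were all heavy chain rows, Nf1, the nearest 3 genes of at least 100 RPKM for Myh4, Myh1 and Myh2, and list members, with those of the largest called change as examples and others with their values. The replicate numbers were not treated as pairs in the main fit. The correlation across genes between deviations of libraries with the same number was -0.018, a value that cannot exclude pairs. The lists were myosin light chains, myosin-binding and thick filament proteins, myosin folding and turnover, transcription regulators, denervation and immature fibre genes, and markers of skeletal, cardiac and smooth muscle, non-muscle myosin, spindle, satellite cell, fibroblast and macrophage. Some genes of the transcription regulator and denervation lists are not reported here, and the counts and medians of both lists cover only the genes kept.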

Additional observations from a re-analysis of the deposited data

How the results depend on the processing

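Among 217 values under alternative settings, 207 held. Fold changes held if they kept their direction and their side of the threshold, and counts of genes if they stayed within 1.5 times. For shares and the heavy chain sum only the direction was compared, so these say nothing about calls. Myh13, at 0.00 in the limma fit, was -0.012 with no filter on low values, -0.0304 without Het replicate 1 and -0.014 in the authors' deposited table, and ran from -0.0304 to 0.0189 over the fits that each left out a replicate. Its adjusted p there was at least 0.61. Scaled to the summed heavy chains, it was 0.35 and called, and Myh7 turned to 0.068 and was not called, because that scaling moves all rows up. Myh7 was called at -0.154 with at least 1 RPKM in every library and at -0.16 without a variance trend; the cause was not tested, and its adjusted p ran from 0.044 to 0.33. Myh3 ran from 0.231 to 0.271 with a replicate left out, and its adjusted p from 0.031 to 0.058. The number of called rows, 5373, became 8075 scaled to the summed heavy chains and 1043 with the further demand of over 0.5 in absolute log2 fold change, and 4222 to 4486 with a replicate left out. With the replicate block it was 5227, Myh4 was -1.08, and no heavy chain changed its call. Myh4 ran from -1.12 to -1.06 and its share difference from -27.0 to -26.9 points with a replicate left out. With 2 libraries per group, the lone library of a reduced group is assumed to vary like the other group. The rows near 1 RPKM rest on a mean of 164 to 587 normalized reads in the authors' deposited table, which limits their precision.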
